A study of Mus musculus with 48 samples.

Results

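The wild-type livers of both mouse lines were compared with each other. Among the 48 livers of the series, 16 were labelled wild-type for Nr1h3, the gene for the nuclear receptor LXRα: 8 were labelled KO:WT and came from the LXRα knockout line, and 8 were labelled DN:WT and came from the line that carries a dominant-negative point mutation in LXRα. They were chosen by their genotype labels. All 48 mice were labelled C57Bl/6J and had eaten western diet for 8 weeks, from 8 weeks of age on, and polyA RNA of the whole liver was sequenced with stranded libraries. The remaining livers, 8 each labelled KO:HET, KO:HOM, DN:HET and DN:HOM, were heterozygous or homozygous for the deleted or the mutant allele.

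By their labels neither wild-type group carried the deletion or the mutation, so the comparison shows how far livers of the same nominal genotype, strain and diet differed between the mouse lines. The knockout line had been made on a mixed Sv129 and C57Bl/6 background and then backcrossed to C57BL/6, and was kept at UCLA. The knock-in line had been made in C57BL/6J mice from a first supplier and crossed to C57BL/6J mice from another, and was made in Cambridge. Wild-type mice of both lines were littermates from crosses of heterozygotes. Animal work took place at 3 sites, and the hour of death, the time since the last meal and the order of extraction and sequencing are not given in the sources used here. Line, breeding colony, site and handling therefore all separate the same animals and cannot be told apart. The labels state no library batch, so whether batch separates the same animals too is not known. The livers were separate animals, so each p-value measures the spread between these animals and not between independent repeats of the mouse studies.

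The circadian clock of the liver is a feedback loop of transcription. BMAL1 pairs with CLOCK or NPAS2 and binds E-boxes to switch on the Per and Cry genes and the nuclear receptors of the Nr1d family, whose proteins in turn repress the activators. Transcription factors of the PAR-bZIP family (Dbp, Tef and Hlf) carry the rhythm to output genes through D-boxes. Adrenal glucocorticoids rise each day before mice become active and again during fasting and restraint, and they induce Fkbp5, Tsc22d3, Per1 and the metallothioneins. Feeding, fasting, drugs and bedding components act on the liver through further receptors. Transcripts of these systems can therefore differ between cohorts that share a genotype.

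Reads assigned to genes ranged from 13876351 to 16803733 per wild-type liver. The mean share of unmapped reads was 7.63% ± 3.66 (SD, n = 8) in KO:WT and 10.7% ± 3.03 (SD, n = 7) in DN:WT, which did not differ beyond the spread of the animals (two-sided exact permutation test over all 6435 splits, p = 0.101). The share of reads counted on no gene, with unmapped, multimapping and ambiguous reads among them, was 27.8% in KO:WT and 30.6% in DN:WT (exact permutation test, p = 0.0960), and the share held by the 20 most abundant genes was 22.8% and 24.5% (exact permutation test, p = 0.0505). Xist, which marks female cells, stayed at or below 0.481 scaled counts per 1000000 reads on genes (CPM) in all 16 livers, and Y-linked transcripts were present in each. None of the 4 tested sex-chromosome markers differed between the groups by edgeR (0 at an unadjusted p under 0.05 and 0 by DESeq2).

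DN:WT animal 10 stood apart and went against its label. Of 9127 genes that differed between DN:HOM and the other DN:WT livers, it lay nearer to the DN:HOM mean at 8285 (90.8%), and DN:HOM animal 12 lay nearer to the DN:HOM mean at only 847 (9.28%). Animal 10 held 1211 CPM of Scd1, the desaturase that LXRα drives, against 22534 to 45317 CPM in the other 7 DN:WT livers. It also held 2094 CPM summed over the markers of lipid-associated macrophages, against 102 to 192 CPM in the other DN:WT livers. Stellate cell markers summed to 1280 CPM (275 to 351 in the others) and cholangiocyte markers to 1194 CPM (48.3 to 88.2). Spp1 stands in both the macrophage and the cholangiocyte list, so those sums share its reads. Values are given without the liver labelled DN:WT animal 10 unless stated, so KO:WT had 8 livers and DN:WT had 7, and the counts of the lists that led are also given with it.

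Liver identity and the makeup of other cells were checked with marker lists. Hepatocyte markers were abundant in every liver. Of the 10 tested, 4 were higher and 1 lower in KO:WT (50% called, against 11.1% of all genes), and 3 and 0 with animal 10. Of these 5 calls, 3 held whichever liver was left out. The part of the hepatocyte markers in the results was not tested. No Kupffer cell marker was called by edgeR (12 tested, 4 at an unadjusted p under 0.05, 1 by DESeq2), but all 12 log2 differences were negative, with a median log2 difference of -0.42, and 1 was called lower with animal 10. Of 10 markers of lipid-associated macrophages 1 was called higher, and none with animal 10. The part of the macrophage markers in the results was not tested. No marker differed for endothelial cells (12 tested, 2 at an unadjusted p under 0.05, 1 by DESeq2), cholangiocytes (6, 0 and 0), B cells (5, 2 and 2), T and NK cells (2, 0 and 0) or neutrophils (2, 1 and 1) by edgeR, and 1 of 12 stellate cell markers was lower. The stellate call stayed with animal 10 but did not hold whichever liver was left out. Of 5 erythroid markers tested, 4 were lower in KO:WT, all of them globin genes, and the markers summed to 178 to 484 CPM in KO:WT and 377 to 443 CPM in DN:WT. With animal 10 included 1 of the 5 stayed called. The erythroid markers moved with the study and their part in the results was not tested. Adipocyte markers summed to 29.9 to 157 CPM in KO:WT and 139 to 286 CPM in DN:WT, with Cidea, which hepatocytes also express, as the 1 of 4 that was called. That call was lost with animal 10, and without DN:WT animal 2, 21 or 7 or KO:WT animal 32 (edgeR adjusted p from 0.0548 to 0.0626). Pancreatic acinar transcripts reached 404 CPM in KO:WT animal 1, with Ctrb1 at 74.9 CPM and Pnlip at 68.2 CPM, where their medians over KO:WT were at 0. In whole tissue, fewer cells of a type and less RNA per cell cannot be told apart.

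The study difference was broad. Of 13657 genes tested, 1518 (11.1%) differed at an adjusted p under 0.05 (the quasi-likelihood test of edgeR, adjusted by Benjamini-Hochberg over all tested genes and called the edgeR adjusted p from here on). Of these, 859 (6.29% of the tested genes) were higher in KO:WT and 659 (4.83%) were lower, and 244 of the 1518 differed by at least 1 on the log2 scale. The split moved with the scaling, to 608 higher and 1001 lower with library size alone and 721 higher and 872 lower with upper-quartile scaling. With animal 10 included, 1216 of 13605 genes (8.94%) were called, 680 higher and 536 lower. In 271 genes (1.98%) every KO:WT liver lay on the same side of every DN:WT liver, 153 of them higher in KO:WT (1.12%), 270 of the 271 were called (1.98%), and with animal 10 this held for 199 genes (1.46%). Of the 1518 calls, 937 (61.7%) held whichever 1 of the 15 livers was left out, and 1136 were also called with animal 10.

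Genes were grouped into 31 lists by function and 12 by cell type. Among the function lists, the called shares were highest for the output genes of the clock (11 of 14), the glucocorticoid response (11 of 16), the core clock (10 of 15) and the secreted hepatokines (12 of 18). Urea cycle and amino acid genes followed with 13 of 23 and female-biased genes with 5 of 9, then fasting and gluconeogenesis with 8 of 16 and xenobiotic metabolism with 12 of 26, against 11.1% of all genes. With animal 10 included, in the same order, 10, 9, 10, 9, 11, 4, 7 and 9 of these genes were called. Of the female-biased list only 9 of 20 genes passed the count filter, which a gene can pass through the higher group alone. By edgeR none was called of 22 oxidative phosphorylation genes (2 at an unadjusted p under 0.05, 0 by DESeq2), 18 LXR targets (7 and 2), 15 immediate early genes (3 and 0) or 7 MHC class II genes (0 and 0). The median log2 difference was 1.23 over the glucocorticoid list, 1.07 over clock output, 0.98 over fasting and 0.58 over xenobiotic metabolism, and -0.0035 over all genes.

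**Figure D1:**
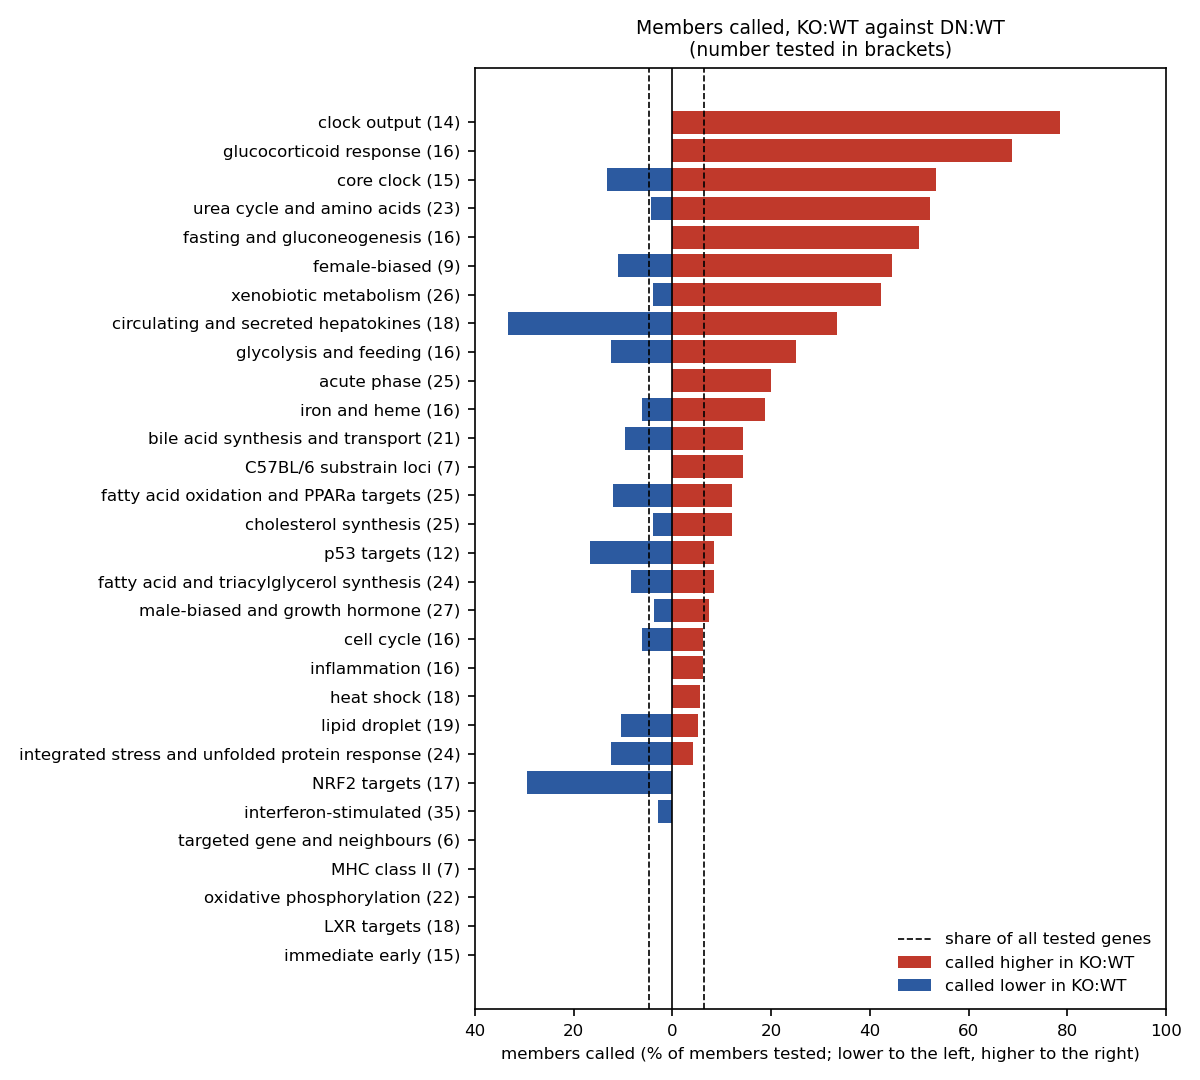
Share of the tested genes of each function list except the sex-chromosome markers (horizontal axis, in %, number tested in brackets) called higher in KO:WT (red, to the right) or lower (blue, to the left) than in DN:WT, with dashed lines at the shares over all 13657 genes, 6.29% and 4.83%. Clock output and the glucocorticoid response stand furthest to the right with 11 of 14 and 11 of 16 called higher, and NRF2 targets hold 5 of 17 called lower and none higher.

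In the core clock, Bmal1 and Clock were lower in KO:WT, and the Per genes and Ciart were higher. Bmal1 (chr7:112806152-112914735, GRCm39), the activator without which the loop stops, lay at 0.558 to 3.65 CPM in KO:WT with a median of 2.18, and at 2.20 to 26.1 CPM in DN:WT with a median of 9.41. The log2 difference, KO:WT minus DN:WT throughout, was -2.22 ± 0.45 (SE, edgeR adjusted p = 0.00435). The ranges overlapped through DN:WT animals 17 and 28, at 2.20 and 2.79 CPM, and the other 5 DN:WT livers lay above every KO:WT liver. Npas2, the partner that can replace CLOCK, ran from 0 to 0.556 CPM in KO:WT and from 0.200 to 11.7 CPM in DN:WT, and did not pass the count filter of the test. Clock itself was lower in KO:WT (-0.54 ± 0.15, edgeR adjusted p = 0.0306), a call that was lost on leaving out DN:WT animal 13, 2 or 21 or KO:WT animal 31, 32 or 5, with adjusted p between 0.0507 and 0.0771.

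The Per genes and Ciart were higher in KO:WT. Per1, whose protein enters the complex that blocks BMAL1, ran from 45.3 to 92.7 CPM with a median of 68.0 in KO:WT and from 5.63 to 34.7 CPM with a median of 18 in DN:WT, so the groups did not overlap (1.99 ± 0.31, edgeR adjusted p = 6.77e-04). Per2 had a median of 72.1 CPM in KO:WT (47.6 to 103) and 41.8 CPM in DN:WT (22.1 to 59.7), a difference of 0.97 ± 0.20 (edgeR adjusted p = 0.00434) with overlapping ranges. Per3 ran from 57.7 to 92.2 CPM in KO:WT and from 8.78 to 54.2 CPM in DN:WT, without overlap (1.28 ± 0.30, edgeR adjusted p = 0.0114). Ciart, a further repressor of the BMAL1 complex, differed most in the list. Its values were 16.4, 42.6 and 68.3 CPM (lowest, median and highest) in KO:WT and 0.809, 4.88 and 14.1 CPM in DN:WT (2.76 ± 0.49, edgeR adjusted p = 0.00177). Every KO:WT liver exceeded every DN:WT liver for Ciart, and so did all 24 livers of the KO study over all 24 of the DN study.

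Other members of the loop moved less. Cry2 (0.49 ± 0.10, edgeR adjusted p = 0.00491) and the repressor Nr1d2 (0.44 ± 0.08, edgeR adjusted p = 0.00208) were higher in KO:WT. Nr1d2 ran from 116 to 143 CPM in KO:WT and from 72.5 to 115 CPM in DN:WT. Its close relative Nr1d1 had a median of 77.9 CPM in KO:WT and 122 CPM in DN:WT, which did not pass the test (-0.58 ± 0.26, edgeR adjusted p = 0.160). Cry1, Bhlhe40, Bhlhe41 and Nfil3 did not pass either, with differences between -0.13 and 0.26. In all, 8 of 15 tested core clock genes were higher and 2 lower, 10 were also called with animal 10 included, and 8 of the 10 calls held whichever liver was left out, all but those of Clock and of Rora, a receptor that drives Bmal1 and was higher in KO:WT (0.33 ± 0.10, edgeR adjusted p = 0.0456). KO:HET and DN:HET gave 8 higher and 2 lower as well, and all 10 genes called in the wild types were called in the same direction there.

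**Figure D2:**
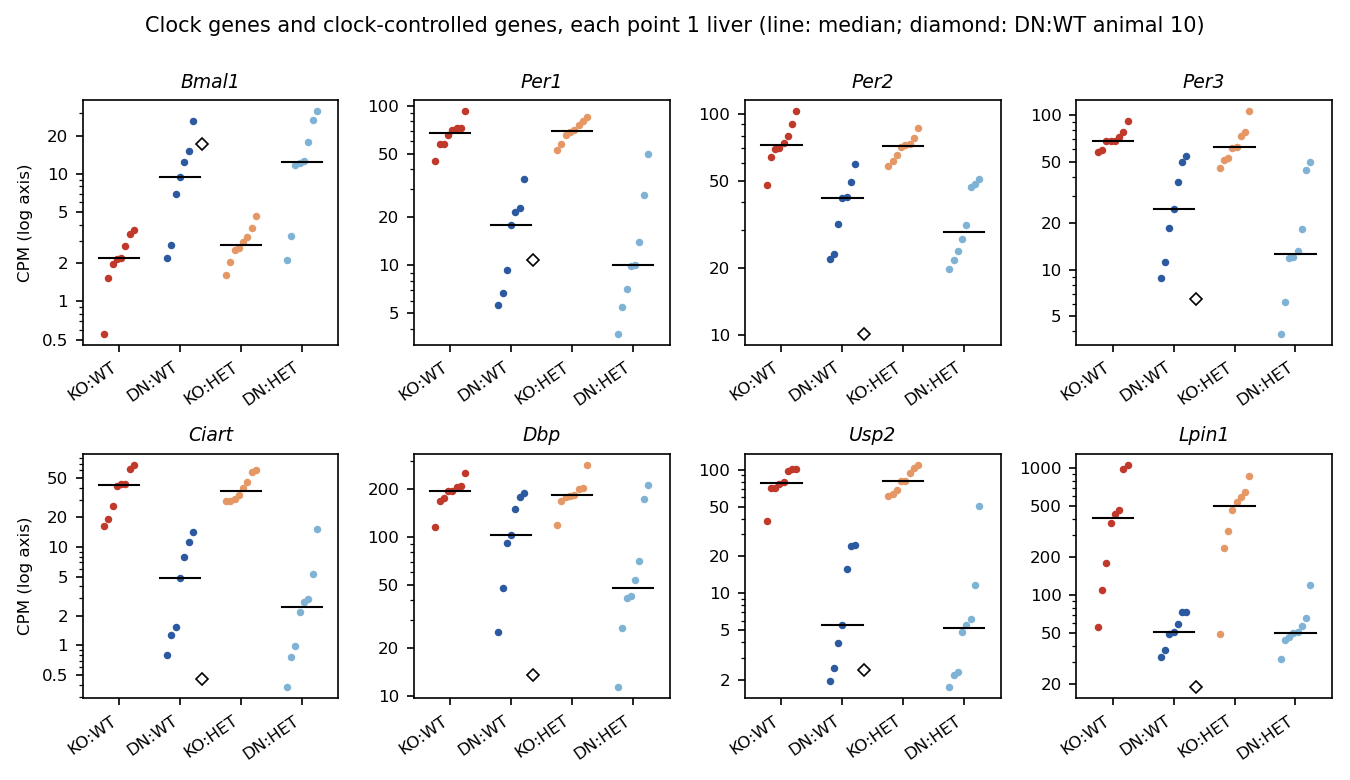
CPM on a log axis of core clock and output genes in each KO:WT, DN:WT, KO:HET and DN:HET liver, with a line at each median and the liver labelled DN:WT animal 10 drawn as a diamond outside the median. Bmal1 is low in the KO livers, at most 3.65 CPM in KO:WT, and Per1, Ciart and Usp2 are high, each without overlap between KO:WT and DN:WT.

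The promoters of 5 of these genes, each higher in KO:WT, are printed because they carry the clock's own binding letters. Each window runs from 250 bases before to 50 bases after the start of the gene's canonical transcript on GRCm39 and is written 5′ to 3′ on the gene's strand. Capitals mark the E-box CACGTG in Per1, Ciart and Usp2 and the D-box TTANGTAA in Per2 and Per3, both searched on both strands.
Per1 chr11:68989018-68989317 (+): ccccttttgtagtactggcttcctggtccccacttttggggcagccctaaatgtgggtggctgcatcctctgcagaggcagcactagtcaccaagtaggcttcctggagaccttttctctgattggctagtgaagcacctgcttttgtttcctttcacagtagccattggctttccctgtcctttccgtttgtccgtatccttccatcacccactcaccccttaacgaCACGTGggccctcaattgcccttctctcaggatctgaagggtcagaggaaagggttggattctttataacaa
Ciart chr3:95789507-95789806 (-): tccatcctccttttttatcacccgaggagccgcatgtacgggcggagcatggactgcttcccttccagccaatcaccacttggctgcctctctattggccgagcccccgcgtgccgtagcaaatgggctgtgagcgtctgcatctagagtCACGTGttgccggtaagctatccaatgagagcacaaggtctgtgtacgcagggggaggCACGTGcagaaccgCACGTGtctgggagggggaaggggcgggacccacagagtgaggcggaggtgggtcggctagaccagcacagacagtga
Usp2 chr9:43978014-43978313 (+): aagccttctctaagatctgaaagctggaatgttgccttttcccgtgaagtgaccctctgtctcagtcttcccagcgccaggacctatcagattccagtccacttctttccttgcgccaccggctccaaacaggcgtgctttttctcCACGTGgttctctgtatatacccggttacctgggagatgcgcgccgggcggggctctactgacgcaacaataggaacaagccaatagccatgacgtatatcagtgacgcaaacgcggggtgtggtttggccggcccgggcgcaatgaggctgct
Per2 chr1:91386997-91387296 (-): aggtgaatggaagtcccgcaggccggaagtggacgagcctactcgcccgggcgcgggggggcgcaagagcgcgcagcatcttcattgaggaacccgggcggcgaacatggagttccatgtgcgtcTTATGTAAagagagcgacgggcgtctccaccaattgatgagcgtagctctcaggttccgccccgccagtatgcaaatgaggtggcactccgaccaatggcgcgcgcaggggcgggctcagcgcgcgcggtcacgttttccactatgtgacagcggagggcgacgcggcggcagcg
Per3 chr4:151129091-151129390 (-): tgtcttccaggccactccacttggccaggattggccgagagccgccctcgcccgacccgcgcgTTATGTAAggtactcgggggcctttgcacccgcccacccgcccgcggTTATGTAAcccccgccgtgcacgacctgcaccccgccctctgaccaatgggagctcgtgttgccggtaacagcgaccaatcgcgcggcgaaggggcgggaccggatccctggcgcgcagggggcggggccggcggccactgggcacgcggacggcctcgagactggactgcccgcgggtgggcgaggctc
Ciart held 3 E-boxes in this window and Per3 held 2 D-boxes, and the others held 1 each. Over the 12038 promoters of tested genes that were read, 10.03% held the E-box and 1.71% held the D-box. Of the 15 core clock genes read, 5 held the E-box (Per1, Cry1, Ciart, Bhlhe40 and Bhlhe41), and 3 of these 5, Cry1, Bhlhe40 and Bhlhe41, did not differ by the test. The D-box stood in 2 of these 15, Per2 and Per3. Of the 14 clock output genes read, 2 held the E-box, Tef and Usp2, and 0 held the D-box. The E-box stood in 97 of 804 promoters of genes called higher (12.1%) and in 64 of 581 of genes called lower (11.02%). For the D-box these were 19 of 804 (2.36%) and 7 of 581 (1.20%). A match is a run of letters and not a measured binding site.

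Output genes of the clock were higher in KO:WT without exception among those called. Usp2, a ubiquitin protease whose transcript cycles steeply in liver, ran from 38.4 to 101 CPM with a median of 77.2 in KO:WT and from 1.96 to 24.5 CPM with a median of 5.52 in DN:WT (2.82 ± 0.46, edgeR adjusted p = 0.00101). Por, the reductase that feeds electrons to microsomal cytochromes P450, ran from 399 to 1124 CPM and from 131 to 377 CPM (1.72 ± 0.24, edgeR adjusted p = 4.23e-04). Neither gene overlapped between the groups, with or without animal 10. Lpin1, a phosphatidate phosphatase and coactivator, had a median of 405 CPM in KO:WT and 51.4 CPM in DN:WT (3.10 ± 0.51, edgeR adjusted p = 0.00116). It varied widely within KO:WT, from 56.3 CPM in animal 1 to 1063 CPM in animal 34, and animal 1 and no other KO:WT liver fell within the DN:WT range of 32.5 to 73.5 CPM.

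The uridine phosphorylase Upp2 (2.07 ± 0.36, edgeR adjusted p = 0.00138) and the deadenylase-like nocturnin Noct (1.92 ± 0.46, edgeR adjusted p = 0.0116) were also higher in KO:WT. Among the PAR-bZIP factors, Tef ran from 206 to 284 CPM in KO:WT and from 78.5 to 185 CPM in DN:WT (0.87 ± 0.16, edgeR adjusted p = 0.00252), and Hlf differed by 0.67 ± 0.10 (edgeR adjusted p = 5.24e-04). Dbp, the third factor of that family, had medians of 195 and 103 CPM but overlapped (0.77 ± 0.32, edgeR adjusted p = 0.127). Nampt, the enzyme that salvages NAD, differed by 1.06 ± 0.17 (edgeR adjusted p = 0.00102). In all 11 of 14 were higher and none lower, and with animal 10 the calls numbered 10. Of the 11 calls, 8 held whichever liver was left out, and Wee1, Alas1 and Rbm3 did not.

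The spread among livers was compared for the clock. The median SD of log2 CPM over the core clock genes was 0.33 in KO:WT and 0.53 in DN:WT. The SD of log2 values was wider in DN:WT than in KO:WT for 10 of 15 core clock genes (66.7%), where this held for 39.2% of all tested genes. DN:WT animals 17 and 28 combined the lowest Bmal1 of their group, 2.20 and 2.79 CPM, with the highest Usp2, 24.3 and 24.5 CPM, and the highest Dbp, 189 and 179 CPM. DN:WT animal 21 combined the highest Bmal1, 26.1 CPM, with 2.5 CPM of Usp2 and the lowest Dbp, 25.1 CPM. Within KO:WT, Bmal1 never exceeded 3.65 CPM and Dbp stayed between 115 and 251 CPM. For synthesis of fatty acids and triacylglycerol 3 of 24 genes were wider in DN:WT, and the other 21 were wider in KO:WT. Heat shock (15 of 18) and oxidative phosphorylation genes (18 of 22) were wider in DN:WT by larger shares than the core clock.

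Glucocorticoid-responsive genes were higher in KO:WT. Fkbp5, a chaperone that tempers the glucocorticoid receptor and is induced by it, ran from 29.4 to 200 CPM with a median of 89.8 in KO:WT and from 9.57 to 20.5 CPM with a median of 15.9 in DN:WT (2.73 ± 0.43, edgeR adjusted p = 7.44e-04). Tsc22d3, which encodes the steroid-induced protein GILZ, ran from 126 to 214 CPM and from 34.6 to 89.8 CPM (1.60 ± 0.18, edgeR adjusted p = 9.02e-05). Zbtb16, a zinc finger repressor, had medians of 49.0 and 4.21 CPM (3.57 ± 0.54, edgeR adjusted p = 6.02e-04). Fkbp5 and Tsc22d3 did not overlap between the groups with or without animal 10, and Zbtb16 overlapped through KO:WT animal 1 at 5.16 CPM.

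Pck1, which commits carbon to glucose and glycerol synthesis, ran from 2574 to 5781 CPM with a median of 3958 in KO:WT and from 762 to 1403 CPM with a median of 1009 in DN:WT (1.89 ± 0.18, edgeR adjusted p = 1.65e-05). Tat, the first enzyme of tyrosine breakdown, ran from 1208 to 3190 CPM and from 613 to 1034 CPM (1.30 ± 0.21, edgeR adjusted p = 0.00101). Neither range overlapped. Genes of the same list that did not pass included the kinase Sgk1 (0.43 ± 0.16, edgeR adjusted p = 0.0880), the phosphatase Dusp1, Klf9, Cdkn1a and Lcn2. In all 11 of 16 were higher and none lower, 9 were called with animal 10, and 10 of the 11 calls held whichever liver was left out, the exception being Errfi1.

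The metallothioneins, which bind zinc and copper and are induced by metals as well as by glucocorticoids, were higher in KO:WT. Mt1 ran from 9.77 to 124 CPM in KO:WT with a median of 78.6 and from 3.93 to 21 CPM in DN:WT with a median of 6.40 (2.98 ± 0.44, edgeR adjusted p = 5.11e-04). Mt2 had medians of 40.8 and 3.71 CPM (3.37 ± 0.48, edgeR adjusted p = 4.22e-04). DN:WT animal 10 held 72.4 CPM of Mt1 and 58.8 CPM of Mt2, and with it Mt1 differed by 2.01 (edgeR adjusted p = 0.0417) and Mt2 by 1.89, which no longer passed (edgeR adjusted p = 0.0967). The lowest KO:WT values of both, 9.77 and 3.30 CPM, came from animal 1, the liver with pancreatic transcripts. The Mt1 promoter is shown because it was the 1 promoter of the 16 in the list that held the glucocorticoid response element, a palindrome searched on both strands and set in capitals, which 33 of 12038 promoters held (0.274%).
Mt1 chr8:94905460-94905759 (+): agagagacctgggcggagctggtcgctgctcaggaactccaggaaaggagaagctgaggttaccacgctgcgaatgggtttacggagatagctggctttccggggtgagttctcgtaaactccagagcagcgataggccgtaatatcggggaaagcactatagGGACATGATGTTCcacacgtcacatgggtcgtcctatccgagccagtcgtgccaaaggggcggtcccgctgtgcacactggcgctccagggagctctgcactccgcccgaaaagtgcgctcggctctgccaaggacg
Among genes called higher 7 of 804 promoters held this palindrome, and among genes called lower 0 of 581.

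The KO:WT livers differed among themselves for Fkbp5, for Lpin1 of the clock output list and for Cyp2b10 of the xenobiotic list. Over the glucocorticoid list the spread was near that of all genes. Its median SD of log2 CPM was 0.51 in KO:WT and 0.47 in DN:WT. The SD was wider in DN:WT for 6 of 16 genes (37.5%), against 39.2% of all tested genes. Animals 33, 14, 34 and 5 held 200, 184, 172 and 126 CPM of Fkbp5, and animals 1 and 31 held 29.4 CPM each. Lpin1 was at 1063 and 981 CPM in animals 34 and 33 and at 56.3 and 111 CPM in animals 1 and 31. Cyp2b10 reached 17.1 and 14.2 CPM in animals 33 and 34 and was at or below 3.58 CPM in the other 6. Even the lowest KO:WT liver lay above every DN:WT liver for Fkbp5.

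**Figure D3:**
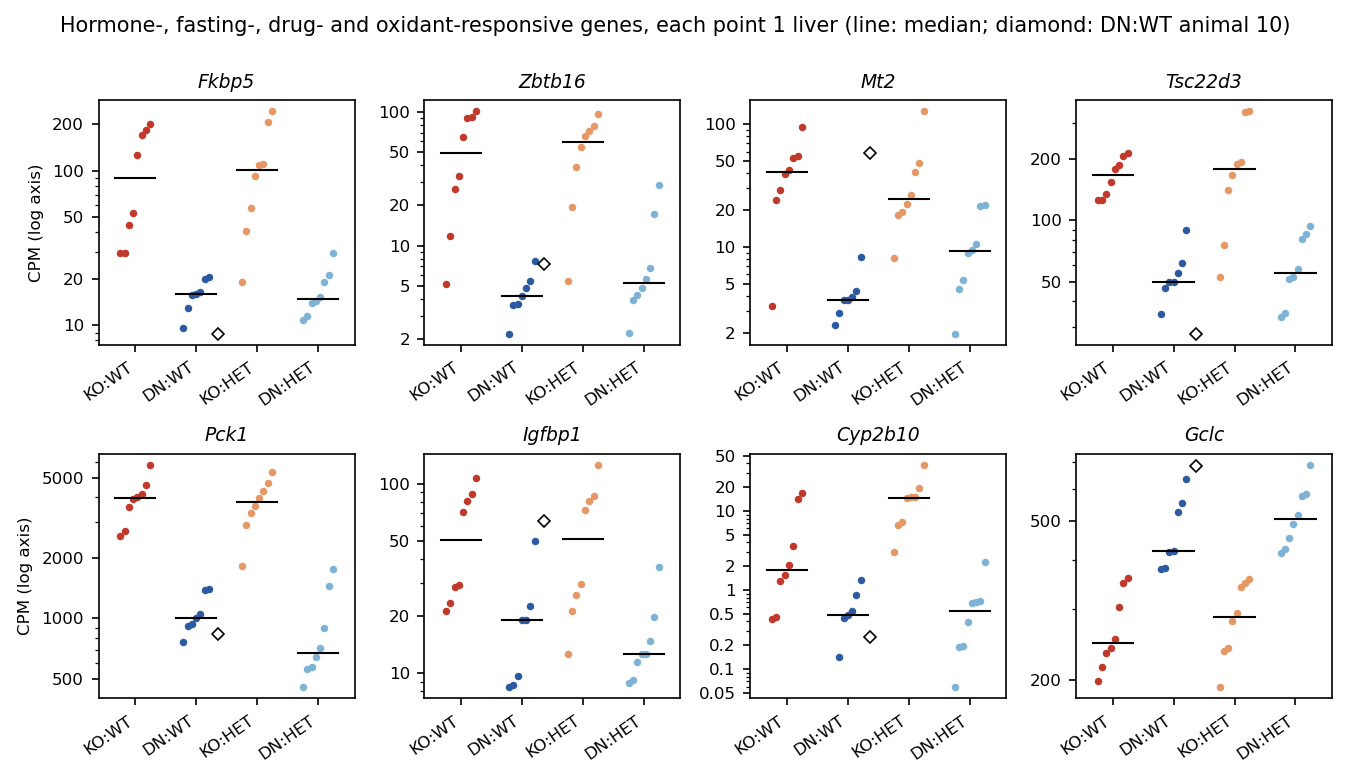
CPM on a log axis of glucocorticoid, fasting, xenobiotic and NRF2 genes in each KO:WT, DN:WT, KO:HET and DN:HET liver, with a line at each median and the liver labelled DN:WT animal 10 drawn as a diamond outside the median; a value of 0 is not drawn. Fkbp5, Tsc22d3, Pck1 and Gclc separate KO:WT from DN:WT, and the diamond lies among the KO:WT livers for Mt2 at 58.8 CPM.

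Fasting and gluconeogenic genes were higher in KO:WT in 8 of 16 cases and lower in none, and 7 were called with animal 10. Angptl4, which inhibits lipoprotein lipase, ran from 105 to 286 CPM in KO:WT and from 54.7 to 86.6 CPM in DN:WT (1.38 ± 0.20, edgeR adjusted p = 4.46e-04). The coactivator Ppargc1a ran from 8.62 to 24.4 CPM and from 5.78 to 7.89 CPM (1.05 ± 0.21, edgeR adjusted p = 0.00354), and the insulin-restrained factor Foxo1 from 34.9 to 95.8 CPM and from 27.6 to 33.8 CPM (1.15 ± 0.17, edgeR adjusted p = 5.03e-04). None of these 3 overlapped. Got1 (1.61 ± 0.35, edgeR adjusted p = 0.00690) and Sds (1.16 ± 0.25, edgeR adjusted p = 0.00651), which move nitrogen and carbon from amino acids, were higher too. The catalytic subunit of glucose-6-phosphatase, G6pc1, had medians of 342 and 356 CPM (-0.08 ± 0.29, edgeR adjusted p = 0.906). Pdk4, a fasting-induced kinase of pyruvate dehydrogenase, had medians of 5.72 and 12.7 CPM (-0.29 ± 0.43, edgeR adjusted p = 0.723). Of the 8 calls, Pck1, Tat and Sds were shared with the glucocorticoid list, and Igfbp1 was the 1 lost with animal 10 (edgeR adjusted p = 0.137).

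The urea cycle and amino acid breakdown were higher in KO:WT by smaller steps. Of 23 genes tested, 12 were higher and 1 lower, and 11 were called with animal 10. Cps1, the entry step of the urea cycle, had medians of 4053 and 2205 CPM (0.75 ± 0.19, edgeR adjusted p = 0.0148). Asl, which releases arginine, ran from 423 to 819 CPM in KO:WT and from 302 to 414 CPM in DN:WT (0.89 ± 0.13, edgeR adjusted p = 5.11e-04), free of overlap. The exception was Gldc of the glycine cleavage system, with medians of 122 CPM in KO:WT and 217 CPM in DN:WT (-0.77 ± 0.13, edgeR adjusted p = 0.00143).

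Xenobiotic genes were mixed in size and mostly higher in KO:WT, with 11 of 26 higher and 1 lower, and 9 were called with animal 10. The receptors themselves moved: Nr1i3, the receptor CAR, had medians of 471 and 271 CPM (0.88 ± 0.19, edgeR adjusted p = 0.00725), Nr1i2, the receptor PXR, 123 and 75.3 CPM (0.75 ± 0.12, edgeR adjusted p = 6.89e-04), and the dioxin receptor Ahr 54.8 and 35.7 CPM (0.63 ± 0.11, edgeR adjusted p = 0.00121). Cyp2b10, the standard readout of CAR, ran from 0.431 to 17.1 CPM in KO:WT and from 0 to 1.32 CPM in DN:WT (3.22 ± 0.83, edgeR adjusted p = 0.0179), and the ranges overlapped. Cyp1a2 (0.87 ± 0.22, edgeR adjusted p = 0.0183) and Cyp2a5 (0.81 ± 0.19, edgeR adjusted p = 0.0102) were higher. Cyp2e1, an abundant P450 of the pericentral zone, ran from 7596 to 12148 CPM and from 5508 to 7434 CPM (0.59 ± 0.11, edgeR adjusted p = 0.00203), a call lost with animal 10 (edgeR adjusted p = 0.0773), which held 1094 CPM. Cyp3a11, the usual readout of PXR, did not pass (-0.41 ± 0.19, edgeR adjusted p = 0.170).

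Stress pathways did not move together. NRF2 targets, the antioxidant genes that the factor encoded by Nfe2l2 drives, were lower in KO:WT in 5 of 17 cases and higher in none, and 6 were called with animal 10. Gclc, the catalytic subunit that limits glutathione synthesis, ran from 198 to 360 CPM in KO:WT and from 379 to 636 CPM in DN:WT (-0.81 ± 0.15, edgeR adjusted p = 0.00184), and it separated all 24 KO from all 24 DN livers. Sulfiredoxin Srxn1 had medians of 42.7 and 76.6 CPM (-0.76 ± 0.16, edgeR adjusted p = 0.00605), and Ugdh differed by -0.45 ± 0.10 (edgeR adjusted p = 0.00691). Nfe2l2 itself was lower in KO:WT, with medians of 82.1 and 139 CPM (-0.72 ± 0.12, edgeR adjusted p = 0.00119). The classic targets Nqo1, Hmox1 and Gclm did not pass. The count moved to 3 without DN:WT animal 21, DN:WT animal 7 or KO:WT animal 33 and to 10 without KO:WT animal 23.

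Of 24 genes of the integrated stress and unfolded protein responses, 1 was higher and 3 lower (16.7% called, against 11.1% of all genes). Of these 4 calls, 2 held whichever liver was left out. The stress hormones Gdf15 (-1.11 ± 0.29, edgeR adjusted p = 0.0179) and Fgf21 (-1.10 ± 0.30, edgeR adjusted p = 0.0232) were lower in KO:WT. The Fgf21 call was lost without DN:WT animal 2 (edgeR adjusted p = 0.0518). The 1 gene that was higher, Herpud1 of endoplasmic reticulum degradation, ran from 445 to 806 CPM and from 226 to 339 CPM (1.14 ± 0.15, edgeR adjusted p = 2.35e-04). Of 18 heat shock genes 1 was called (5.56%), Hspd1, and not with animal 10 nor without DN:WT animal 13, 2, 5 or 7 or KO:WT animal 33 or 34 (edgeR adjusted p from 0.0521 to 0.0667). Of 15 immediate early genes none was called by edgeR (3 at an unadjusted p under 0.05, 0 by DESeq2). Among p53 targets 1 of 12 was higher, Trp53inp1 (0.87 ± 0.14, edgeR adjusted p = 0.00116), and 2 were lower, Mdm2 (-0.39 ± 0.08, edgeR adjusted p = 0.00617) and Aen (25% called in both directions together).

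For synthesis of fatty acids and triacylglycerol, 2 of 24 genes were higher and 2 lower (16.7% called, near the 11.1% of all genes), and 2 and 1 with animal 10. Without it, 12 were at an unadjusted p under 0.05 and the median log2 difference was -0.35. The elongase Elovl3 had medians of 88.4 CPM in KO:WT and 265 CPM in DN:WT (-1.62 ± 0.30, edgeR adjusted p = 0.00205), and Dgat2, which adds the last acyl chain to triacylglycerol, ran from 647 to 722 CPM and from 389 to 584 CPM (0.56 ± 0.08, edgeR adjusted p = 4.55e-04). Fasn had medians of 813 and 1735 CPM but ranged from 184 to 1859 CPM within KO:WT and did not pass (-1.06 ± 0.40, edgeR adjusted p = 0.0977), and Scd1 did not pass either (-0.66 ± 0.36, edgeR adjusted p = 0.261). No LXR target was called of 18 tested by edgeR (7 at an unadjusted p under 0.05, 2 by DESeq2), and Nr1h3 itself ran from 81.5 to 108 CPM and from 82.1 to 96.9 CPM (0.04 ± 0.07, edgeR adjusted p = 0.765). On mean log2 CPM, Nr1h3 differed by -0.020 (two-sided exact permutation test, p = 0.757).

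Fatty acid oxidation and PPARα targets gave 3 of 25 genes higher and 3 lower (24% called, against 11.1% of all genes), and 3 and 1 with animal 10. Of the 6 calls, 3 held whichever liver was left out. Cpt1a, which admits fatty acids to mitochondria, differed by 0.55 ± 0.15 (edgeR adjusted p = 0.0241), a call lost without DN:WT animal 13, 2, 21 or 5 or KO:WT animal 34 (edgeR adjusted p from 0.0509 to 0.0573). Of 19 lipid droplet genes 1 was higher, the lipase Pnpla2 (0.74 ± 0.16, edgeR adjusted p = 0.00643), and 2 were lower (15.8% called, near the 11.1% of all genes). With animal 10 Pnpla2 alone was called. In cholesterol synthesis 3 of 25 genes were higher and 1 lower (16% called, near the 11.1% of all genes), and 3 and 0 with animal 10. Of the 4 calls, 1 held whichever liver was left out. Fdft1 and Hmgcs1 lost theirs (edgeR adjusted p from 0.0516 to 0.0734). Sqle, the squalene epoxidase, had medians of 8.07 and 2.62 CPM (1.59 ± 0.43, edgeR adjusted p = 0.0238), lost without DN:WT animal 13, 2, 5 or 7 (edgeR adjusted p from 0.05004 to 0.0542). In heterozygous livers Sqle differed by 0.04, and the test of the wild-type against the heterozygous difference did not call it. For bile acids 3 of 21 genes were higher and 2 lower (23.8% called), but only 1 was called with animal 10, the reductase Akr1d1. Glucose handling gave 4 of 16 higher, among them the kinase Pfkfb3 (1.97 ± 0.27, edgeR adjusted p = 3.56e-04) and glycogen synthase Gys2 (0.67 ± 0.10, edgeR adjusted p = 6.89e-04), and 2 lower that were not called with animal 10. Both directions together made up 37.5% of these 16 genes. None of 22 genes of oxidative phosphorylation was called by edgeR (2 at an unadjusted p under 0.05, 0 by DESeq2).

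Secreted proteins gave 6 of 18 higher and 6 lower, and 5 and 4 with animal 10, and 5 of these 12 calls held whichever liver was left out. Serpina12, which encodes vaspin, ran from 52.6 to 116 CPM in KO:WT and from 127 to 169 CPM in DN:WT (-0.84 ± 0.15, edgeR adjusted p = 0.00154), and Igf1, the growth hormone effector, had medians of 613 and 448 CPM (0.53 ± 0.11, edgeR adjusted p = 0.00536). The iron hormone Hamp had medians of 406 and 157 CPM (1.11 ± 0.24, edgeR adjusted p = 0.00585). Acute phase genes gave 5 of 25 higher (20% called, against 11.1% of all genes), 4 with animal 10, with Serpina3n from 345 to 472 CPM and from 226 to 324 CPM (0.58 ± 0.09, edgeR adjusted p = 5.03e-04). Il6ra, the receptor subunit through which IL-6 reaches hepatocytes, ran from 35 to 142 CPM with a median of 95.6 in KO:WT and from 17.9 to 26 CPM with a median of 19.8 in DN:WT (2.18 ± 0.24, edgeR adjusted p = 9.02e-05), without overlap. Interferon-stimulated genes gave 0 of 35 higher and 1 lower (2.86% called), inflammation 1 of 16 higher (6.25%), and cell cycle 1 of 16 in each direction (12.5%). Neither the interferon call nor the 2 cell cycle calls held whichever liver was left out. With animal 10 the interferon list had 0 calls and cell cycle had 1.

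The heterozygous livers gave a second view of the study difference in other animals. They came from the same crosses, lines and sites as the wild types, so they are not an independent repeat of the mouse studies. Their comparison also sets a deleted copy of Nr1h3 against a mutant copy, so it is not the wild-type difference alone. KO:HET against DN:HET gave 2294 called genes of 13797 (16.6%), 1253 higher (9.08%) and 1041 lower (7.55%). Of the 1518 genes called in the wild types 1509 were tested there, 1489 had the same sign (98.7%, against 76.9% of the 13498 genes tested in both), and 1046 were called with the same sign. These were 68.9% of the wild-type calls and 45.6% of the heterozygous calls, and no gene was called in opposite directions. With animal 10 included 911 were shared, 74.9% of the wild-type calls and 39.7% of the heterozygous calls. The difference between the wild-type and the heterozygous study difference was also tested in 31 livers. Of 14633 genes 1 passed, Nr1h3 (0.68, edgeR adjusted p = 1.15e-04), with 480 (3.28%) at an unadjusted p under 0.05, and KO:HET carries a deleted copy of that gene. None of the 1518 wild-type calls passed this test, which does not show that the differences were equal.

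**Figure D4:**
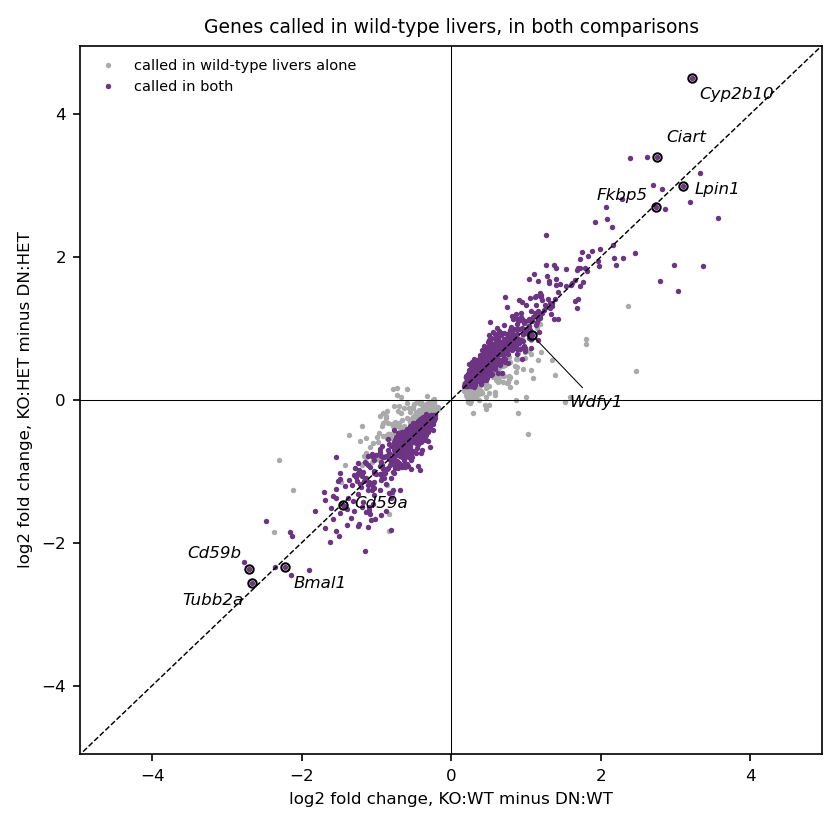
Log2 difference of the KO study minus the DN study in heterozygous livers (vertical axis) against the same difference in wild-type livers (horizontal axis), each point a gene called in the wild types, purple where it was called in both comparisons and grey where it was called in the wild types alone, with a dashed line where both differences are equal. Of the 1509 points 1489 lie in the upper right or lower left corner, and 1046 are purple.

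In 26 genes (0.190% of those tested) all 24 livers of the KO study, whatever their LXRα genotype, lay on the same side of all 24 livers of the DN study. Over wild-type and heterozygous livers alone, 16 against 15, this held for 57 genes (0.417%). The 19 that were higher in the KO study included Ciart, Il6ra, the growth factor binding protein Igfbp4 (0.75 ± 0.11, edgeR adjusted p = 4.57e-04 in the wild types), the transcription factor Klf13 (1.35 ± 0.15, edgeR adjusted p = 9.02e-05), the kinase Map2k6, the alanine transaminase Gpt and the cholesterol carrier Stard5. The 7 that were lower included Gclc, Cd59a, the autophagy receptor Sqstm1 (-0.35 ± 0.06, edgeR adjusted p = 0.00154), the ubiquitin ligase subunit Fbxo6, the junction protein Tjp3 and the matrix protein Spon2. Spon2 ran from 1.46 to 8.94 CPM in KO:WT and from 13.7 to 31.8 CPM in DN:WT (-2.36 ± 0.32, edgeR adjusted p = 3.18e-04). Of the 26, 3 stood in a function list. Klf13 shares its locus with the noncoding Gm27252, which also separated the studies.

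A pair of neighbouring genes on chromosome 2 had the smallest adjusted p-values of the wild-type comparison. Cd59a (chr2:103926132-103947029), which shields cells from complement, ran from 28 to 44.3 CPM with a median of 32.8 in KO:WT and from 84.4 to 105 CPM with a median of 92.4 in DN:WT (-1.44 ± 0.09, edgeR adjusted p = 9.73e-08). Its neighbour and paralog Cd59b (chr2:103895758-103921538) ran from 0.538 to 1.66 CPM and from 5.4 to 7.48 CPM (-2.71 ± 0.20, edgeR adjusted p = 4.93e-07). Neither overlapped, and the split of reads between these similar genes is uncertain. KO:HET and DN:HET repeated the difference for Cd59a at -1.47 with separate ranges. DN:HOM livers other than animal 12 lay below DN:WT for both genes, at 44.7 to 77.9 CPM of Cd59a and 1.51 to 2.98 CPM of Cd59b. DN:WT animal 10 held 60.8 CPM of Cd59a and 1.57 CPM of Cd59b, within those DN:HOM ranges, and DN:HOM animal 12 held 89.1 and 5.73 CPM, within the DN:WT ranges. Tcp11l1 (chr2:104487633-104542772), with Hipk3 and Cstf3 between it and the Cd59 pair, ran from 7.63 to 16.2 CPM and from 4.14 to 6.41 CPM (1.21 ± 0.14).

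These loci lie on the chromosome of the targeted gene. Nr1h3 is at chr2:91014394-91033417, so Cd59a starts 12.91 Mb and Tcp11l1 13.47 Mb beyond it. Both studies carried their altered allele at Nr1h3, and by their labels the wild types carried neither allele. Whether the surrounding stretch of chromosome 2 differed between the lines was not tested. Called genes made up 14% of 50 within 5 Mb of Nr1h3, 14.9% of 74 within 10 Mb, 17.5% of 166 within 20 Mb and 13.2% of 1027 on chromosome 2, against 11.1% of all genes. None of 6 tested genes at Nr1h3 and next to it was called by edgeR (1 at an unadjusted p under 0.05, 0 by DESeq2). On the other side, the noncoding Gm13657 (chr2:75601250-75620893) lies near Nfe2l2 (chr2:75504739-75534985), with E030042O20Rik between them (-1.71 ± 0.34, edgeR adjusted p = 0.00365), and ran from 0.0697 to 0.912 CPM and from 1.70 to 3.50 CPM (-2.78 ± 0.34, edgeR adjusted p = 1.92e-04).

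Loci known to differ between C57BL/6 substrains were listed as a check of background. Of the 7 tested 1 was called (14.3%, near the 11.1% of all genes). Wdfy1 (chr1:79679017-79753860), an endosomal adaptor, ran from 21.9 to 40.1 CPM in KO:WT and from 12.7 to 22.6 CPM in DN:WT (1.09 ± 0.14, edgeR adjusted p = 2.27e-04), and the groups overlapped only through KO:WT animal 5 at 21.9 CPM. Nnt, the mitochondrial transhydrogenase that C57BL/6J mice carry in a deleted form, was at 0.628 to 1.24 CPM and 0.444 to 1.49 CPM (0.06 ± 0.27, edgeR adjusted p = 0.928). Of the 244 genes called with a log2 difference of at least 1, 17 lay in the 4 windows of 5 Mb that held at least 4 of them, namely the acyl-CoA thioesterases on chromosome 12 (Acot1, Acot3, Acot4 and the noncoding 4732463B04Rik), a stretch of chromosome 3 with Noct and Foxo1, 5 Mup pseudogenes on chromosome 4, and the metallothioneins on chromosome 8. The chromosome 12 window held 4 such genes, with Acot3 among them. The Acot3 call was lost without DN:WT animal 13, 2, 21, 5 or 7 (edgeR adjusted p from 0.0501 to 0.0557), which leaves that window under the minimum. Members of the Acot and Mup families are near-identical, so their split of reads is uncertain. Herpud1 and the noncoding Gm15889 (2.86 ± 0.36), which ran from 4.60 to 22 CPM in KO:WT and from 0.867 to 3.18 CPM in DN:WT, lie next to each other on chromosome 8.

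**Figure D5:**
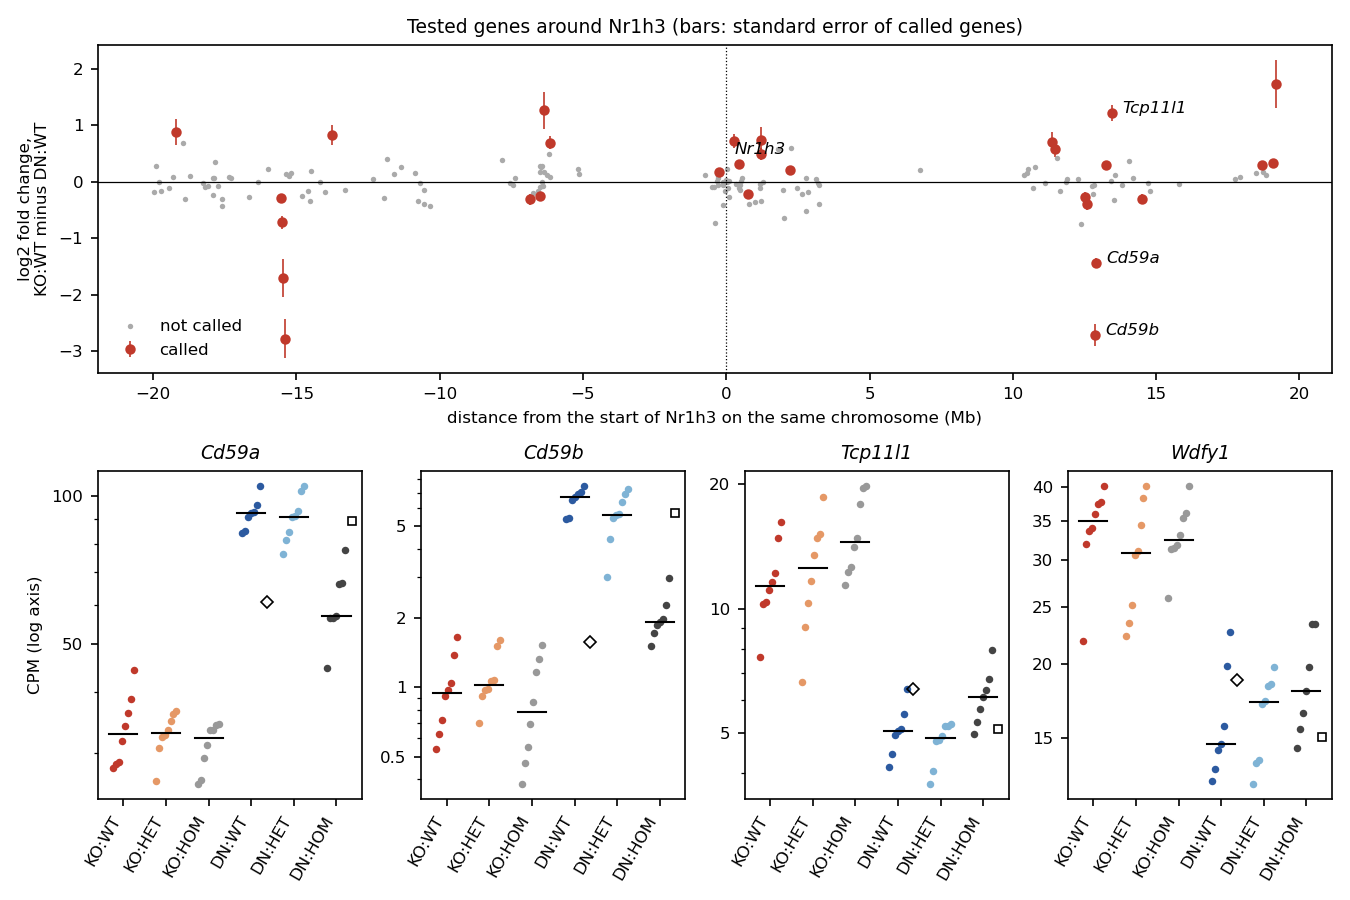
Above, the log2 difference of each tested gene within 20 Mb of Nr1h3 against its distance from the start of Nr1h3 in Mb, with called genes in red and bars of 1 SE; below, CPM on a log axis of 4 loci in all 48 livers by group, with a line at each median, the liver labelled DN:WT animal 10 as a diamond and DN:HOM animal 12 as a square. Cd59a and Cd59b are low in every KO group and high in DN:WT and DN:HET, DN:HOM has lower medians than both, and Wdfy1 overlaps between the wild types through 1 KO liver.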

How the data were processed

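The authors aligned stranded polyA reads of each liver to GRCm39 with STAR 2.5.0a, per the labels, and deposited for each liver a table of raw counts per gene in an unstranded and 2 stranded columns. Column 4, the strand that held most reads of these libraries, was used. Rows for unmapped, multimapping, unassigned and ambiguous reads were kept out of library sizes and tests, and these reads made up 24.3% to 34.3% per wild-type liver.

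The members were the 16 livers whose genotype label is KO:WT or DN:WT. Members and gene lists were chosen with earlier results of these data known. Counts were scaled by trimmed mean of M values and tested with edgeR 4.0.16 (R 4.3.3), quasi-likelihood, on genes passing filterByExpr, with the Benjamini-Hochberg adjustment and a threshold of 0.05. Printed CPM divide by the reads on genes, scaled over all 48 livers. A list's call counts are read against the share over all tested genes. Single values were tested by exact permutation (scipy 1.17.1). Genes named with values were, by rule, the list members and the 15 largest rises and falls free of overlap, and called genes in dense 5 Mb windows. Further genes separated over all 48 livers and those of the closing section were chosen after their values were seen. In counts simulated for KO:WT against DN:WT, edgeR recovered 88.42% of genes changed by 1 and 98.91% of those changed by 2 on the log2 scale. The simulation drew each gene independently and held 187 changed genes among those tested. Genes that vary together between livers were not modelled, so these rates need not hold for the real counts. Some genes that the rule names are not reported here, though list counts include them. Alternatives were DESeq2 1.42.0, 3 other scalings, 2 other filters, joint fits, unstranded counts, animal 10 included and each liver left out. Leaving out shallow heterozygous livers and the test of the wild-type against the heterozygous difference were added after the data were seen. Promoters were read from GRCm39 at the Ensembl canonical transcript. The labels state no batch, and no paired analysis was possible because replicate numbers name livers in accession order.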

Additional observations from a re-analysis of the deposited data

Results flagged for a closer look

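Values that stood far from the others of their group by Dixon's criterion were looked for in 340 groups of 4 to 10 livers over 85 genes, and 20 were found; chance alone gives about 1 in 20 groups. In KO:WT, animal 1 held 38.4 CPM of Usp2 (70.4 to 101 in the others), 9.77 of Mt1 (42.4 to 124) and 3.30 of Mt2 (24.4 to 95.5), animal 5 held 21.9 of Wdfy1 (32 to 40.1) and animal 34 held 62.2 of Hlf (80.6 to 100.4). In DN:WT, animal 17 held 9.34 CPM of Sqle (1.55 to 3.14) and 38.8 of Trp53inp1 (54.8 to 70.0 in the others), and animal 5 held 2.33 of Cyp2c55 (4.998 to 7.02).

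In KO:HET, animal 16 held 49.9 CPM of Lpin1 (238 to 866 in the others), 344 of Tef (227 to 269), 13.1 of Serpina12 (58.3 to 85.6), 498 of Gys2 (238 to 313) and 74.0 of Tars1 (93.1 to 106). Animal 9 of that group held 246 CPM of Nr1i3 (433 to 604), 5208 of Cyp2e1 (8520 to 10649), 44.5 of Mdm2 (32.9 to 36.2) and 26 of Fitm1 (43.5 to 63.1), and animal 15 held 53.4 of Hmgcs1 (88.5 to 121) and 725 of Serpina3n (427 to 477). In DN:HET, animal 14 held 585 CPM of Igf1 (414 to 478).

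The study difference itself differed between wild-type and heterozygous livers for Nr1h3 alone, by 0.68 on the log2 scale in edgeR's test of the difference. Wild-type livers differed by 0.04 and heterozygous livers by -0.65, where KO:HET livers carry a deleted copy of the gene.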

How the results depend on the processing

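The wild-type study difference fell from 1518 to 601 genes at an adjusted p under 0.01 and to 244 with a log2 difference of at least 1. The heterozygous difference fell from 2294 to 942 and 382, and the shared calls from 1046 to 398 and 171. Under the same pair of thresholds the core clock kept 6 and 4 genes, clock output 7 and 7, NRF2 targets 3 and 0, and xenobiotic metabolism 6 and 1, and urea cycle and amino acids held 2 with a log2 difference of at least 1. The joint fit of 48 livers called 8 NRF2 targets. Leaving out each liver in turn gave 1092 (without DN:WT animal 2) to 1894 genes (without KO:WT animal 23), 819 to 1148 shared calls, 8 to 10 core clock, 8 to 12 clock output, 3 to 10 NRF2, 10 to 12 glucocorticoid, 7 to 9 fasting, 10 to 14 xenobiotic and 10 to 16 urea cycle and amino acid genes. DESeq2 called 1978 genes, no filter 1275 and unstranded counts 1512, and no scaling moved the median of all genes by 0.1 or more. Steap4, an acute phase ferrireductase higher in KO:WT (0.58), turned to -0.052 with animal 10, which held 478 CPM, and to -0.024 in the joint fit of 48 livers, and lost its call without DN:WT animal 2 (edgeR adjusted p = 0.0515). Of 250 genes checked with animal 10 included, 225 kept their direction and side of the threshold. Npas2 fell under the count filter, and whether depth was the reason was not tested.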

Other observations

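Families outside the function lists were described after their values were seen, and their counts stand against 11.1% of all genes called, 4.83% lower in KO:WT. Of 16 tubulin genes tested, 8 were lower in KO:WT and none higher, and all 8 were called in the same direction in heterozygous livers, as were 68.9% of all wild-type calls. Tubb2a, a beta-tubulin, ran from 14.3 to 211 CPM with a median of 48.3 in KO:WT and from 198 to 638 CPM with a median of 435 in DN:WT (-2.66 ± 0.45, edgeR adjusted p = 0.00127), and overlapped through KO:WT animal 23 at 211 CPM. Tubb4b ran from 44.9 to 113 CPM and from 134 to 205 CPM without overlap (-1.15 ± 0.15, edgeR adjusted p = 2.74e-04). Tubulin genes are similar in sequence, so the split of reads among them is uncertain. Of 17 cytosolic aminoacyl-tRNA synthetases, 6 were lower and none higher, led by the threonine enzyme Tars1, with 85.9 to 113 CPM and 156 to 230 CPM (-0.94 ± 0.10, edgeR adjusted p = 9.02e-05). Of 50 proteasome subunits 7 were lower and 1 higher (16% called in both directions together, against 11.1% of all genes). Of 78 ribosomal protein genes 1 was higher.

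Among sex-biased liver genes, 9 of 20 female-biased genes passed the filter, 4 of them higher in KO:WT and 1 lower (3 and 1 with animal 10), in livers with Xist at or below 0.481 CPM. Fmo2, a flavin monooxygenase, ran from 6.98 to 54.8 CPM and from 4.31 to 8.01 CPM (2.29 ± 0.37, edgeR adjusted p = 0.00101). Of 27 male-biased and growth hormone genes 2 were higher and 1 lower (11.1% called, the same as the 11.1% of all genes). Slc30a10, a manganese exporter, ran from 20.6 to 45 CPM and from 51.5 to 93.8 CPM (-1.34 ± 0.15, edgeR adjusted p = 9.02e-05), and with animal 10 at 29.5 CPM the groups overlapped.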
